A study of Mus musculus with 6 samples.

Results

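Interferon-stimulated genes and RNA sensors were followed in N2a cells after siRNA knockdown of circRtn4. The set was a fixed list of 42 gene symbols, the products of which detect foreign RNA, carry the interferon signal or act against viruses, and each of them was found among the 54532 genes of the expression table. The list was written by name and not by a cut on any measured value. Earlier results of these data were known when it was chosen. N2a (Neuro2A) is an established mouse neuroblastoma line, labelled as strain C57BL/6 and grown in MEM with fetal bovine serum. By the study's general methods, transfected N2a cells were moved to a low-serum medium with retinoic acid, which induces differentiation, before harvest. The labels name only the growth medium, so whether all 6 libraries share this treatment is not given. In the 3 control libraries the cells received si-NC, a negative control siRNA, and in the other 3 libraries they received si-circRtn4, an siRNA against the back-splice junction of circRtn4, a circular RNA made from exons of Rtn4. All libraries therefore came from cells transfected with a synthetic double-stranded RNA, and no untransfected group was analysed here. The labels do not say whether replicates came from separate cultures, so p-values measure the spread between these libraries only.

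Interferons are secreted proteins that cells release when they detect viral nucleic acid. In the cytosol, RIG-I (Ddx58) and MDA5 (Ifih1) bind double-stranded RNA and signal through the adaptor MAVS, and IRF3 then switches on interferon and a first group of response genes. Secreted interferon acts through its receptor, JAK1, TYK2, STAT2 and IRF9 to switch on a wider group, the interferon-stimulated genes. Many of these genes carry an interferon-stimulated response element (ISRE) near the start, which STAT2, IRF9 and other IRF proteins bind. Short double-stranded RNAs such as siRNAs are known as possible ligands of the RNA sensors.

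Before the expression values, the sequences are shown that bear on them. The siRNA of the treated group is given because it is the only designed difference between the groups. Its listed strand has 19 bases, and the capitals mark the site that would pair with guide bases 2 to 8 if the guide is its reverse complement. The sequence of si-NC was not analysed here.
si-circRtn4: cttcagatgagACCCTTTt

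Promoter windows are shown for the members on which the results turn, 3 that were higher in si-circRtn4 libraries by a test described below, 1 (Ifih1) with nearly all of its few reads there, and 1 that was lower. Each runs from 250 bases before the start of the gene to 50 bases after it, 5′ to 3′ on the strand of the gene, from the RefSeq table of GRCm38.p6. Capitals mark each match to a minimal ISRE core, which was GAAA and GAAA with 2 bases between them, on either strand. The windows lie at chr4:156200769-156201068 for Isg15 (minus strand), chr5:114922990-114923289 for Oasl1 (plus strand), chr19:34640639-34640938 for Ifit1 (plus strand), chr2:62646206-62646505 for Ifih1 (minus strand) and chr7:140955912-140956211 for Ifitm2 (minus strand).
Isg15: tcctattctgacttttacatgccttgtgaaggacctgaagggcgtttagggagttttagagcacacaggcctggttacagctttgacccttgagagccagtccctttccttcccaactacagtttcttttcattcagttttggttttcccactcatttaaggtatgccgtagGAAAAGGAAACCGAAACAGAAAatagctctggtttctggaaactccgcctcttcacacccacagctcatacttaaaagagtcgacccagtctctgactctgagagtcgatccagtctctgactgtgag
Oasl1: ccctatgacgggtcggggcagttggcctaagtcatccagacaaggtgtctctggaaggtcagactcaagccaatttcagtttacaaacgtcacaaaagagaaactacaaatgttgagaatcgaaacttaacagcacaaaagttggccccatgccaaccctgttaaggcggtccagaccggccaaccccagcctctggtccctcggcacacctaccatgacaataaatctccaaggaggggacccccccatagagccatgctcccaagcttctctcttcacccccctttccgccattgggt
Ifit1: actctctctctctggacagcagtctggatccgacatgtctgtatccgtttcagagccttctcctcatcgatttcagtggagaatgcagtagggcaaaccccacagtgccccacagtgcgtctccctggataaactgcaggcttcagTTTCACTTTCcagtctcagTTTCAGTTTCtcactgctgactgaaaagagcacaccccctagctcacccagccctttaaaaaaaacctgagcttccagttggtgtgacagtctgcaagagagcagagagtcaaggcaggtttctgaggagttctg
Ifih1: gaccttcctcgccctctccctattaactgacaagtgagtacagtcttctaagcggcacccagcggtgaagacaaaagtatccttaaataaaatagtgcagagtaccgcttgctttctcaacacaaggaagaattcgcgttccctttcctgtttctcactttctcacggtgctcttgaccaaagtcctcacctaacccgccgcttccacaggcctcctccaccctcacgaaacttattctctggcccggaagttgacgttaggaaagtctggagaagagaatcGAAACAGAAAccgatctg
Ifitm2: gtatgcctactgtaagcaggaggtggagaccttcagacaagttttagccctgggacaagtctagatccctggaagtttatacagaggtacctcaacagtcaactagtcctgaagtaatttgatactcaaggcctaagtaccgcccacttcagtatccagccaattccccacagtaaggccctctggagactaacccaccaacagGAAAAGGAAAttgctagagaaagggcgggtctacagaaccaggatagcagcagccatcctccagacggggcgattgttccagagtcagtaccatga

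In Isg15, 3 overlapping matches lay 74, 68 and 62 bases before the start by their centres. Ifit1 held 2 matches on the opposite strand, with centres 100 and 81 bases before the start. The match of Ifih1 lay 36 bases after the start, and that of Ifitm2 lay 42 bases before it. The window of Oasl1 held no match. Of the other members called in either direction, Oasl2, which was higher, and Psmb8 and Irf1, which were lower, held no ISRE core. Psmb8 and Irf1 each held 1 match to the GAS letters described next. A match is only a run of letters, and its use by any factor was not measured.

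Of the 42 members, 33 had at least 1 promoter window in that table, 37 windows in all. The members with no window were Dhx58, Zbp1, Oas2, Usp18, Mx1, Mx2, Rtp4, Parp14 and Ccl5. The ISRE core was found in 17 of the 37 windows (45.9%), against 3.44% of all 32851 windows and 2.62% of the 11335 windows of genes tested for expression. The letters TTCNNNGAA, a gamma-activated site (GAS) that reads the same on both strands, were found in 8 of the 37 windows (21.6%), against 8.3% of all windows and 6.47% of those of tested genes. Because the list was written as interferon genes, these shares describe the choice of list and are not a result of the knockdown. Matches of the 2 motifs can overlap, as in Bst2 and Ifitm3.

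**Figure D1:**
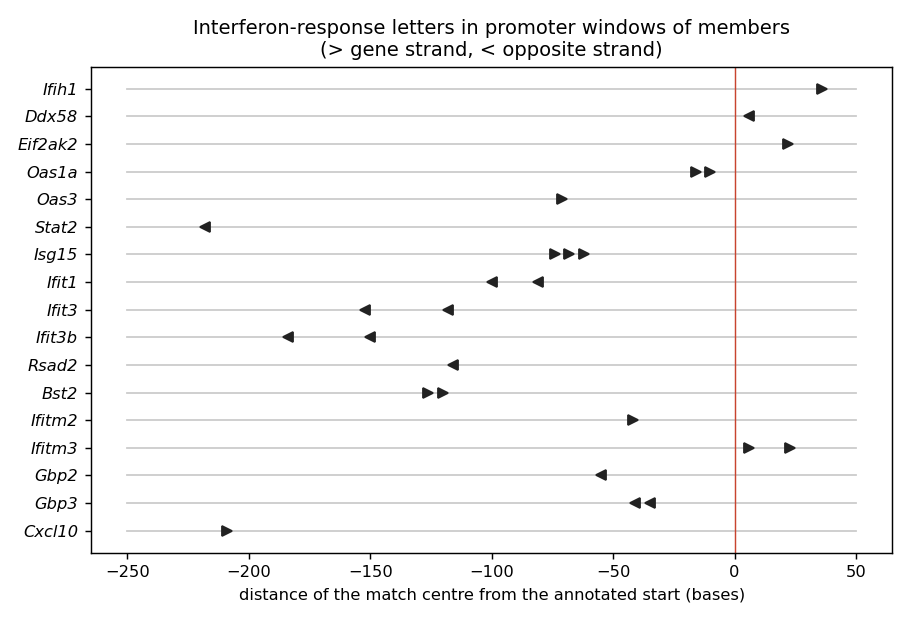
Matches to the ISRE core in the promoter windows of the 17 members that hold one, with 1 gene per line and the distance of each match's centre from the annotated start on the x axis (bases, negative before the start). Arrowheads point right for the strand of the gene and left for the opposite strand, and the vertical line is the start. Isg15 has 3 neighbouring ISRE core matches, and Ifih1 has its 1 match after the start.

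Expression was measured as FPKM, fragments scaled to gene length and to the size of the library. FPKM multiplied by gene length fell on whole multiples of 1 step in each library, so the reads behind each value could be recovered. These came to between 13541198 and 15122063 reads on genes per library. Genes that averaged 1 FPKM or more across all libraries, 12749 in number, were tested on log2(FPKM + 1) with limma and a Benjamini-Hochberg adjustment over all of them. Fold changes are given on this log2 scale, which understates the change of low genes, and a gene was called at an adjusted p under 0.05. With 3 libraries per group, an exact permutation test cannot give a p below 0.1. In bulk RNA, fewer expressing cells and less RNA per cell cannot be told apart.

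The host gene Rtn4 stood at 61.0, 66.8 and 69.8 FPKM in si-NC and at 50.1, 56.7 and 62.7 FPKM in si-circRtn4 libraries (log2 fold change −0.22, SE 0.10, adjusted p = 0.216 in limma, and 0.0447 with the replicate number as a block). The table counts genes, so the circle itself was not measured, and any reads from its exons are not told apart from linear Rtn4. By qRT-PCR the paper reports no significant change of linear Rtn4 mRNA after this knockdown in N2a cells. Of 14 neuroblastoma and sympathetic neuron markers, 13 reached 1 FPKM, and their summed level was 2550 to 2800 FPKM in si-NC against 1120 to 1610 FPKM in si-circRtn4 libraries. Most of that sum was Chgb (means of 1300 and 364 FPKM) and Chga (255 and 85.2 FPKM), while Elavl4 was higher (13.6 and 24.3 FPKM) and Hand2 overlapped (208 and 193 FPKM). None of 10 macrophage and microglia markers reached 1 FPKM, and their sum was 1.23 to 2.65 FPKM against 1.58 to 3.00 FPKM, with Cd14, Itgam and C1qa without a read. None of 7 lymphocyte markers reached 1 FPKM either (0.676 to 0.891 against 0.0482 to 0.397 FPKM). Of 7 fibroblast markers, 1 reached 1 FPKM, Pdgfrb, which was higher in si-circRtn4 (means of 2.05 and 4.77 FPKM, log2 fold change 0.92, adjusted p = 0.0316 in limma), and the sum of the 7 was 1.77 to 3.27 FPKM against 4.59 to 6.97 FPKM. The collagen genes Col1a1, Col1a2 and Col3a1 stayed at 0.257 FPKM or less in every library. Reads on mitochondrially encoded genes made up 2.13% to 2.353% of a si-NC library and 1.559% to 1.942% of a si-circRtn4 library, and the single noncoding gene Gm23935 took 20.09% to 20.7% against 13.45% to 18.81% of the FPKM sum. The part of these differences in the results below was not tested, beyond a repeat of the fit without Gm23935.

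The interferon-stimulated genes of N2a cells did not move in 1 direction. Isg15 and Oasl1 rose several-fold in si-circRtn4 libraries, while Ifitm2, Psmb8 and Irf1 fell to between 60.2% and 70.7% of the si-NC mean. Of the 42 members, 21 reached a mean of 1 FPKM and were tested, and the other 21 were below it. Among the 21 tested, 2 rose, 3 fell and 16 did not pass. Over all genes tested, 4.36% were called higher and 4.82% lower, and the members' 2 of 21 and 3 of 21 stand beside those shares. The groups did not overlap, with si-circRtn4 higher, for 2 members, and with si-circRtn4 lower, for 6, where 16.2% and 15.5% of all tested genes did so. The median log2 fold change of the 21 members was −0.053, within a range of −0.72 to 1.83, beside 0.002 for all genes tested. In 7 members it was above 0 and in 14 below 0. These 21 include Rsad2 and Cxcl10, which reached the minimum only through the si-circRtn4 group.

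**Figure D2:**
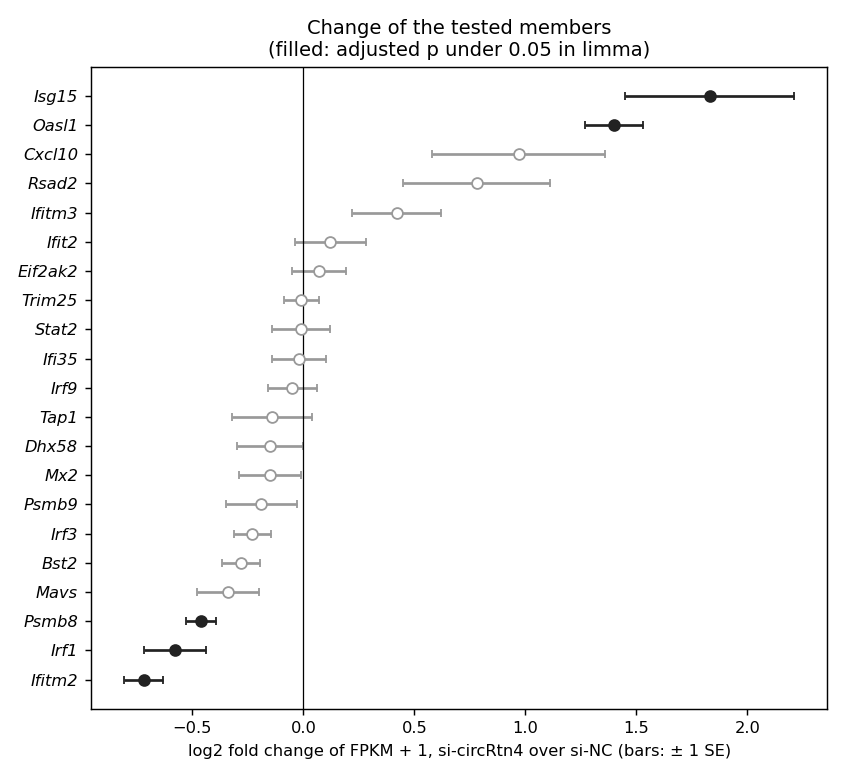
Log2 fold change of FPKM + 1 (si-circRtn4 over si-NC) for each of the 21 tested members, ordered by its size, with points for the estimate, bars for 1 SE on each side and filled points for an adjusted p under 0.05 in limma. Isg15 and Oasl1 stand to the right at 1.83 and 1.40, and Ifitm2 is the lowest at −0.72.

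Isg15 (ENSMUSG00000035692, chromosome 4, 156199424 to 156200818, minus strand, GRCm38) encodes a ubiquitin-like protein that is joined to other proteins during the interferon response. Its 3 si-NC libraries held 6.05, 5.60 and 5.29 FPKM, and its si-circRtn4 libraries held 28.4, 37.4 and 10.7 FPKM. Every si-circRtn4 library was above every si-NC library, but replicate 3 of si-circRtn4 lay much nearer to the controls than the other two. The mean went from 5.65 ± 0.379 to 25.5 ± 13.6 FPKM (SD, n = 3 each), 4.52 times the control mean, with a log2 fold change of 1.83 (SE 0.38) and an adjusted p of 0.0282 in limma. The call changed with the libraries included. It was lost without any 1 of the 3 si-NC libraries (adjusted p = 0.0622, 0.0821 and 0.0748 in limma) and without replicate 1 or 2 of si-circRtn4 (0.0907 and 0.0729). In these fits, each with 1 library fewer, the log2 fold change stayed between 1.48 and 1.88. Without replicate 3 of si-circRtn4 the log2 fold change was 2.34 and the adjusted p 0.00178 in limma. It was also lost when all 28442 genes above 0 were tested (adjusted p = 0.112 in limma) and when the minimum was 0.1 FPKM (0.0555).

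The other genes of the ISG15 system did not follow it. Usp18, the protease that removes ISG15 from its targets and dampens interferon signalling, had 11, 19 and 12 reads in si-NC and 26, 19 and 8 reads in si-circRtn4 libraries. These overlapped, and Usp18 was under 1 FPKM. Trim25, a ubiquitin and ISG15 ligase that acts on RIG-I, stood at 18, 17.5 and 17.0 FPKM against 17.1, 16.2 and 18.8 FPKM. Its log2 fold change of −0.01 lay between −0.07 and 0.07 under every alternative processing.

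In the oligoadenylate synthetase family, Oasl1 rose. OAS proteins make 2′-5′ oligoadenylate on double-stranded RNA, which activates RNase L, whereas OASL1 belongs to the family members without that activity and is known as an inhibitor of Irf7 translation. Oasl1 (ENSMUSG00000041827, chromosome 5, 114923240 to 114937915, plus strand, GRCm38) stood at 1.52, 1.12 and 1.40 FPKM in si-NC and at 6.25, 4.61 and 4.75 FPKM in si-circRtn4 libraries. The si-circRtn4 values lay close together and all above the control values. The mean was 3.86 times that of si-NC (1.35 ± 0.208 against 5.20 ± 0.913 FPKM, SD, n = 3 each), with a log2 fold change of 1.40 (SE 0.13) and an adjusted p of 0.00254 in limma. The call held in each of 15 alternatives, with an adjusted p of 0.0186 at most in limma and a log2 fold change of 1.28 to 1.95. Gm13822, annotated on the opposite strand with 38 bases shared, was at 0.191 FPKM in si-NC and 0.586 FPKM in si-circRtn4 libraries, and the strand of the counting is not given in the sources used here.

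The rest of the family was too low for that test and is given by reads. Oasl2 had 48, 26 and 29 reads in si-NC libraries and 76, 94 and 57 reads in si-circRtn4 libraries, which did not overlap. Oas1a had 3, 4 and 1 reads against 12, 7 and 2 reads, and the groups overlapped. Oas2 had 3, 4 and 3 reads against 1, 0 and 1 reads, and Oas3 had 0 to 2 reads in any library. Oas1a has close copies in its gene cluster, so the split of reads among them is uncertain.

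Among the sensors and adaptors of double-stranded RNA, 3 of 6 reached 1 FPKM and none passed the test. Mavs, the mitochondrial adaptor of RIG-I and MDA5, stood at 6.75, 5.18 and 4.79 FPKM in si-NC and at 4.69, 4.38 and 3.52 FPKM in si-circRtn4 libraries. All si-circRtn4 values were lower, though by a narrow gap, and the log2 fold change was −0.34 (SE 0.14, adjusted p = 0.177 in limma). With the replicate number as a block, so that libraries of the same number were compared with each other, the adjusted p was 0.0381 in limma. Eif2ak2 (PKR, the kinase that halts translation on double-stranded RNA) had means of 4.37 and 4.63 FPKM, and Dhx58 (LGP2, a regulator of both RNA helicases) had means of 1.80 and 1.52 FPKM. Both overlapped between the groups. Ddx58 had 72, 69 and 39 reads in si-NC and 59, 84 and 20 reads in si-circRtn4 libraries, again with overlap. Zbp1, a sensor of Z-form nucleic acid, had 1 read in each group.

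Ifih1 (ENSMUSG00000026896, chromosome 2, 62595798 to 62646255, minus strand, GRCm38) differed most between the groups in relative terms, at very low counts. It had 0, 1 and 0 reads in si-NC libraries and 20, 15 and 8 reads in si-circRtn4 libraries. The si-circRtn4 libraries thus held nearly all of its 44 reads. The rate of reads was 42.9 times that in si-NC (95% interval 7.29 to 1730, exact and for counting error only). At most 0.172 FPKM was reached in any library.

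To place such low members, a fit chosen after the data had been seen was made with limma-voom on the recovered reads of the 19721 genes with at least 10 reads in all, 36 members among them. In it, 5 members were higher and 3 lower, where 5.14% of all genes were called higher and 4.07% lower. Of the 5, Ifih1 reached the minimum of reads only through the group where it was high, so its call carries no weight and its reads above stand as a description. The other 4 were Isg15, Oasl1, Ifit1 and Oasl2, and those called lower were again Irf1, Ifitm2 and Psmb8. Oasl2 had a log2 fold change of 1.14 (SE 0.29, adjusted p = 0.0205 by limma-voom), with a rate of reads 2.20 times that in si-NC (95% interval 1.73 to 2.80). Its call was lost without replicate 2 or 3 of si-NC (0.103 and 0.0744 by limma-voom) or replicate 1 or 2 of si-circRtn4 (0.0593 and 0.0958).

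The IFIT proteins bind foreign RNA by its 5′ end, and Ifit1 was the member of this family that differed. Ifit1 (ENSMUSG00000034459, chromosome 19, 34640871 to 34650009, plus strand, GRCm38) had 15, 14 and 22 reads in si-NC and 72, 85 and 24 reads in si-circRtn4 libraries. Replicates 1 and 2 of si-circRtn4 were well above the controls, and replicate 3 exceeded the highest control by 2 reads. The rate of reads was 3.54 times that in si-NC (95% interval 2.58 to 4.93), with a log2 fold change of 1.63 and an adjusted p of 0.0493 by limma-voom. It was 0.000594 without replicate 3 of si-circRtn4 and between 0.0802 and 0.173 without any other library. Ifit2 stood at 1.15 FPKM in si-NC and 1.35 FPKM in si-circRtn4 libraries (log2 fold change 0.12), with overlap. Ifit3 had 0 to 3 reads in any library, and its near-identical copy Ifit3b had 1 read in all.

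**Figure D3:**
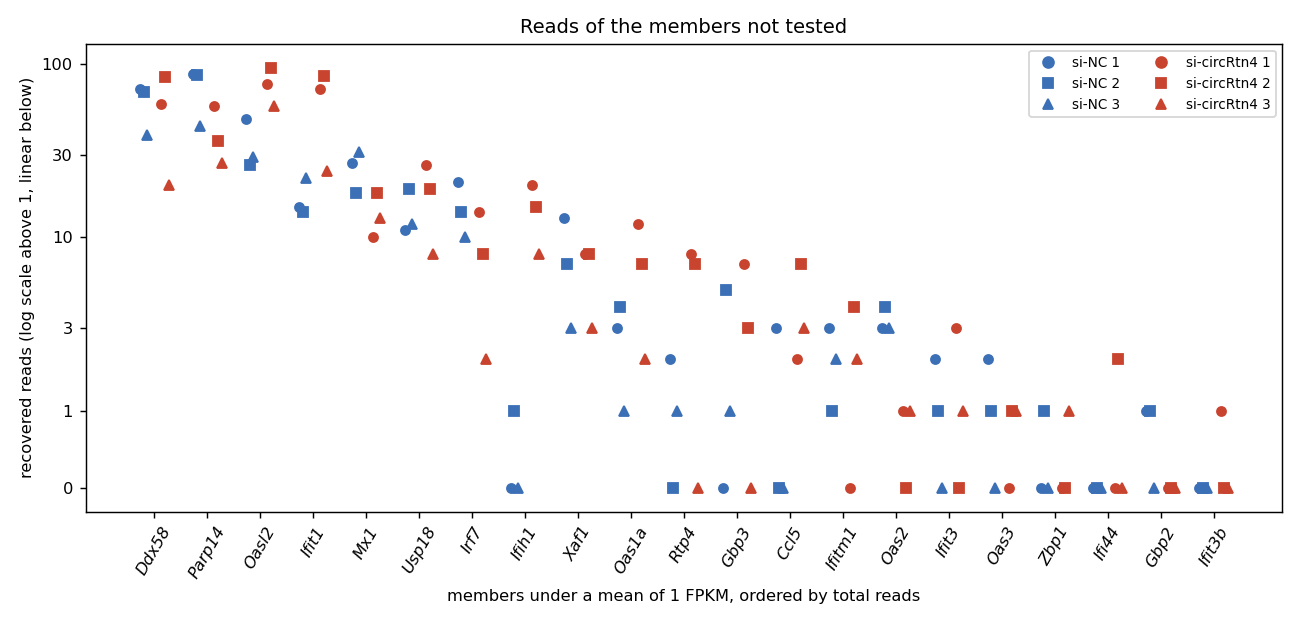
Recovered reads in each library for the 21 members under a mean of 1 FPKM, with 1 point per library (si-NC in blue, si-circRtn4 in red, marker shapes for replicates) and a y axis that is logarithmic above 1 and linear from 0 to 1. Ifih1 goes from 0 to 1 read in si-NC to 8 to 20 reads in si-circRtn4, while Irf7 has its lowest value, 2 reads, in replicate 3 of si-circRtn4.

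The 5 transcription factors among the members lay at or below the control level. Irf1, an activator that interferon and inflammatory signals induce, was called lower. Irf1 (ENSMUSG00000018899, chromosome 11, 53770014 to 53778374, plus strand, GRCm38) stood at 11, 8.04 and 7.89 FPKM in si-NC and at 6.33, 5.69 and 4.86 FPKM in si-circRtn4 libraries. No value overlapped, and the first si-NC library was above the other two. The mean was 62.8% of the control (8.97 ± 1.73 against 5.63 ± 0.736 FPKM, SD, n = 3 each), with a log2 fold change of −0.58 (SE 0.14) and an adjusted p of 0.0416 in limma. This call was lost whichever library was left out (adjusted p = 0.0607 to 0.111 in limma), while with the replicate block the adjusted p was 0.00893.

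Irf3, which the RNA sensors activate by phosphorylation, stood at 10.1, 9.71 and 9.45 FPKM in si-NC and at 7.60, 9.0 and 7.89 FPKM in si-circRtn4 libraries. The groups did not overlap, but the log2 fold change of −0.23 (SE 0.082) gave an adjusted p of 0.124 in limma. Irf3 shares 1065 bases with Bcl2l12 on the opposite strand (1.23 and 0.684 FPKM). Stat2 stood at 9.16, 7.5 and 7.09 FPKM against 9.09, 6.70 and 7.74 FPKM. Irf9, which joins STAT2 in the interferon-activated complex, had means of 2.85 and 2.71 FPKM, so neither of these partners differed beyond the spread. Irf7, an amplifier of interferon production, had 21, 14 and 10 reads in si-NC and 14, 8 and 2 reads in si-circRtn4 libraries.

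The interferon-induced transmembrane proteins block the entry of viruses into cells, and Ifitm2 was the 1 of the 3 members that passed the test. Ifitm2 (ENSMUSG00000060591, chromosome 7, 140954837 to 140955987, minus strand, GRCm38) was the most abundant member per length. It stood at 109, 128 and 120 FPKM in si-NC and at 68.4, 76.4 and 70.1 FPKM in si-circRtn4 libraries. The lowest control was well above the highest si-circRtn4 value. Its mean fell to 60.2% of the control (119 ± 9.65 against 71.6 ± 4.23 FPKM, SD, n = 3 each), with a log2 fold change of −0.72 (SE 0.087) and an adjusted p of 0.00436 in limma. The call held in each of 15 alternatives, with an adjusted p of 0.0223 at most in limma.

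Ifitm3 stood at 14.9, 11.7 and 11.8 FPKM in si-NC and at 21.3, 20 and 12.1 FPKM in si-circRtn4 libraries. Here replicates 1 and 2 of si-circRtn4 were above every control and replicate 3 lay among the controls. The log2 fold change of 0.42 (SE 0.20) gave an adjusted p of 0.246 in limma, and without replicate 3 of si-circRtn4 it was 0.66 with an adjusted p of 0.034. Ifitm1 had 6 reads in each group. Ifitm2 and Ifitm3 are close relatives, so reads that fit both could have been split or dropped in the counting. The difference between their changes was not tested.

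Among the other antiviral effectors, Bst2 (tetherin, which holds budding virus at the cell surface) stood at 47.9, 43.4 and 44.8 FPKM in si-NC and at 39.2, 38.8 and 33.5 FPKM in si-circRtn4 libraries. The groups did not overlap, and the log2 fold change was −0.28 (SE 0.086, adjusted p = 0.0859 in limma). With the replicate block its adjusted p was 0.0386 in limma. Ifi35 stood at 18.3, 15.6 and 15.0 FPKM against 16.1, 18.5 and 13.7 FPKM, and Mx2 had means of 1.33 and 1.11 FPKM. Mx1 had 27, 18 and 31 reads in si-NC and 10, 18 and 13 reads in si-circRtn4 libraries. Parp14, an ADP-ribosyltransferase, had 87, 86 and 44 reads against 57, 36 and 27 reads. These 2 genes had fewer reads in si-circRtn4 but neither was called by limma-voom.

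Rsad2 and Cxcl10 are given in each library because they passed the minimum of 1 FPKM only through the si-circRtn4 group, a choice made after their values were seen. A test of them therefore had to lean towards a rise, and their values are a description. Rsad2 (viperin, an enzyme that makes a chain terminator of viral RNA synthesis) stood at 0.734, 0.720 and 0.429 FPKM in si-NC and at 3.03, 2.39 and 0.587 FPKM in si-circRtn4 libraries. Cxcl10, a chemokine that attracts T cells, stood at 0.765, 1.17 and 0.762 FPKM against 2.62, 5.93 and 1.04 FPKM. In both, replicates 1 and 2 of si-circRtn4 were above every control and replicate 3 fell within the control range. With all libraries neither passed, at a log2 fold change of 0.78 (SE 0.33) for Rsad2 and 0.97 (SE 0.39) for Cxcl10. Cxcl10 lies wholly within Art3 on the opposite strand, which was at 0.0227 and 0.0342 FPKM.

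Rtp4, Ccl5, Xaf1, Gbp2, Gbp3 and Ifi44 had few reads, at most 13 in any library (Xaf1). Rtp4 had 2, 0 and 1 reads in si-NC and 8, 7 and 0 reads in si-circRtn4 libraries, again with replicate 3 at the control level. Ccl5, a chemokine, had 3, 0 and 0 reads against 2, 7 and 3 reads. Their rates of reads were 4.98 times (95% interval 1.41 to 26.9) and 3.99 times (1.08 to 22.0) those in si-NC, for counting error only, while the libraries of both groups overlapped. Xaf1 had 23 and 19 reads and Gbp3 had 6 and 10 reads in the groups as a whole. Gbp2 had 2 reads in si-NC and none in si-circRtn4, and Ifi44 had none in si-NC and 2 in si-circRtn4. For Xaf1 the rate of reads was 0.823 times that in si-NC (95% interval 0.424 to 1.58, for counting error only). For Gbp3 it was 1.66 times (0.547 to 5.56), and both genes overlapped between the groups. Gbp2 and Ifi44 had too few reads for a difference to be seen.

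The antigen-processing members were lower or near the control level. Psmb8 and Psmb9 are interferon-induced catalytic subunits of the immunoproteasome, and Tap1 carries peptides into the endoplasmic reticulum. Psmb8 (ENSMUSG00000024338, chromosome 17, 34197721 to 34201454, plus strand, GRCm38) stood at 13.7, 13.3 and 12.8 FPKM in si-NC and at 9.56, 9.39 and 9.13 FPKM in si-circRtn4 libraries. Both groups were tight and far apart. Its mean fell to 70.7% of the control (13.2 ± 0.468 against 9.36 ± 0.218 FPKM, SD, n = 3 each), with a log2 fold change of −0.46 (SE 0.067) and an adjusted p of 0.00929 in limma. The call held in each of 15 alternatives, with an adjusted p of 0.047 at most in limma. Tap1 had means of 3.67 and 3.18 FPKM and Psmb9 had means of 1.70 and 1.39 FPKM, both with overlap. These neighbours share 212 bases on opposite strands.

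**Figure D4:**
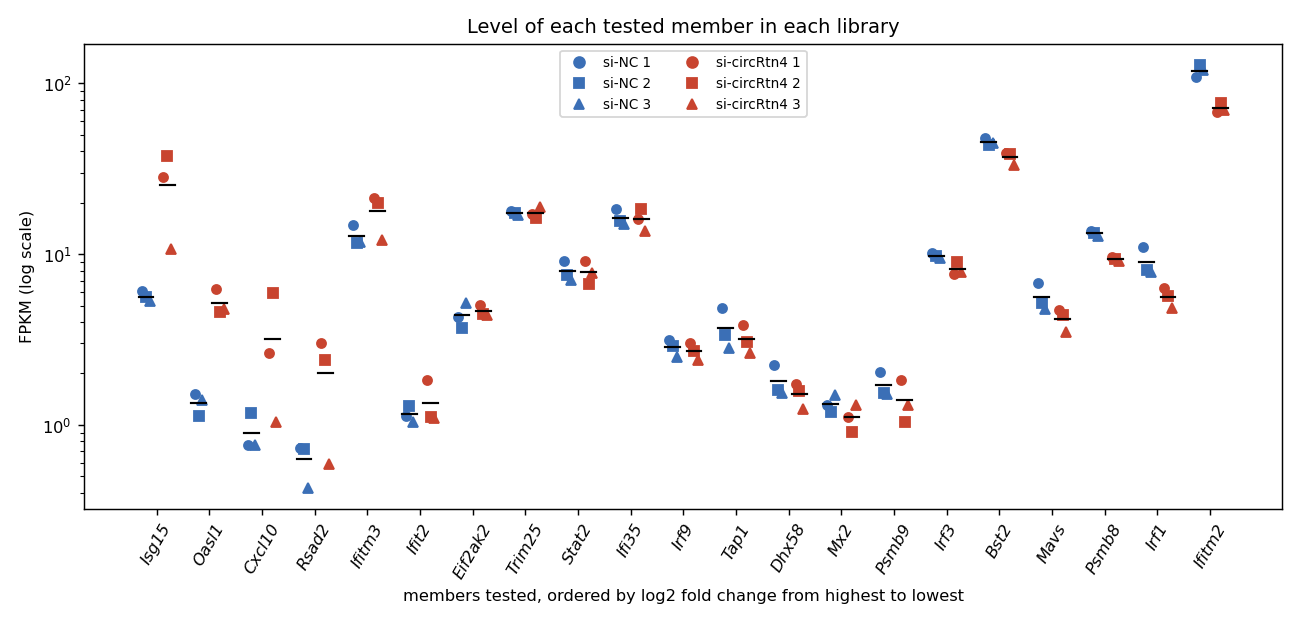
FPKM of the 21 tested members in each of the 6 libraries on a log axis, with 1 point per library (si-NC in blue, si-circRtn4 in red, marker shapes for replicates) and a black line at each group mean. The points of Isg15, Oasl1, Ifitm2 and Psmb8 separate by group, and replicate 3 of si-circRtn4 lies nearest to the controls for Isg15, Rsad2, Cxcl10 and Ifitm3.

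Replicate 3 of si-circRtn4 was the lowest library of its group for 25 of the 36 members with at least 10 reads (69.4%). The share was 33.0% over the 19715 genes with at least 10 reads in all and any read in si-circRtn4. A tie was given to the lower replicate number. For members that were lower in si-circRtn4, such as Irf1 and Psmb8, the lowest library was the one farthest from the controls. The count thus does not measure nearness to the controls. Replicate 1 was lowest for 5 members and replicate 2 for 6. The same count was not made in si-NC. There, replicate 3 was also the lowest of its group for Mavs, Irf1, Isg15 and Rsad2, but not for Oasl1 or Ifit1. A low replicate 3 is therefore not particular to si-circRtn4 for all members. The reads on genes of replicate 3 of si-circRtn4, 14535944, lay between those of the other replicates of that group. This library had the lowest share of mitochondrial reads (1.559%) and of Gm23935 (13.45%), and their part in the pattern was not tested. Without it, 5 of the members were called higher in limma, where 2.53% of all genes tested were. Of these, Isg15, Oasl1 and Ifitm3 reached 1 FPKM in both groups, and Rsad2 and Cxcl10 did so only in si-circRtn4, so the calls of the latter pair carry no weight. With the replicate block and all libraries, 2 members were higher and 5 lower, with Mavs and Bst2 added to those that fell, where 9.29% and 9.75% of all genes tested were called.

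The seed of the siRNA was also looked for in the members. The 7-base site ACCCTTT stood in the longest 3′ UTR of 7 of the 42 members (16.7%) and of 1337 of 10666 tested genes with a 3′ UTR (12.5%). The 7 were Mavs, Oas2, Oas3, Trim25, Ifit1, Ifitm2 and Xaf1, with 1 site each. Of these, Ifitm2 was called lower, Mavs was lower in every si-circRtn4 library without passing the unblocked test, and Oas2 had 10 reads in si-NC against 2 in si-circRtn4. Ifit1 was higher by limma-voom, Trim25 had a log2 fold change of −0.01, and Oas3 and Xaf1 overlapped between the groups. Of the other members called lower, Irf1 and Psmb8 held no site.

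The pathway around the members was followed with 173 further genes listed by role, of which 171 were found by symbol and 99 reached 1 FPKM. Of the 99, 2 rose and 11 fell, against the 4.36% and 4.82% of all genes, and their median log2 fold change was −0.066. With the replicate block 4 were higher and 19 lower, against 9.29% and 9.75% of all genes. Of the 13 calls, 6 held whichever library was left out (Nfkbia, Tapbp, Jak1, H2-D1, H2-K1 and Ube2l6). The other 7 were lost without replicate 2 of si-NC, with adjusted p-values of up to 0.0938 in limma across the libraries left out. Il10rb, Ptpn2 and Isg20 were each lost in 4 of the 6 fits without 1 library, and Nfkb1 in 2. Reads on interferon ligand genes were nearly absent from these libraries, and interferon protein or its level at other times was not measured. Of 21 interferon ligand genes, 20 had no read in any library, Ifnb1 among them, and Ifnl2 had 3 reads in 1 si-circRtn4 library. A count of 0 allows up to 3 reads per library.

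Of the receptors, Ifnar1 had means of 12.9 and 12.4 FPKM (log2 fold change −0.05, adjusted p = 0.748 in limma), and Ifnar2 had a log2 fold change of 0.20 (adjusted p = 0.267). Ifngr2, a chain of the interferon gamma receptor, fell by 0.43 on the log2 scale (adjusted p = 0.0117 in limma), and Il10rb, a chain shared by the interferon lambda and interleukin 10 receptors, fell by 0.61 (adjusted p = 0.0206). The kinase Jak1 went from 27.6, 32.1 and 31.2 FPKM to 15.7, 16.7 and 18.5 FPKM and fell by 0.80 (adjusted p = 0.00352 in limma). All of its si-circRtn4 values were far below the controls. Tyk2 had a log2 fold change of −0.36 (adjusted p = 0.113 in limma, and 0.0353 with the replicate block). Stat3, which mainly serves cytokines of the interleukin 6 family, rose by 0.51 (adjusted p = 0.0142 in limma).

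Below the sensors, the largest fall was in Nfkbia, the inhibitor that holds NF-κB in the cytosol and is itself an NF-κB target. It stood at 77.5, 61.9 and 60.8 FPKM in si-NC and at 21, 25.4 and 22.2 FPKM in si-circRtn4 libraries, and fell by 1.5 on the log2 scale (SE 0.12, adjusted p = 0.00139 in limma). Nfkb1, a subunit of NF-κB, fell by 0.49 (adjusted p = 0.0152 in limma). Ptpn2, a phosphatase that acts on JAK and STAT proteins, fell by 0.56 (adjusted p = 0.0198 in limma). Tlr3, the endosomal sensor of double-stranded RNA, had 7 reads in si-NC and 23 reads in si-circRtn4. Adar, which edits double-stranded RNA, had a log2 fold change of 0.06 (adjusted p = 0.685 in limma).

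Among 77 further interferon-stimulated genes, 45 were tested, 1 rose and 5 fell, where 4.36% and 4.82% of all genes tested did so. Isg20, an exonuclease of RNA, stood at 2.24, 1.23 and 2.23 FPKM in si-NC and at 4.95, 4.01 and 3.44 FPKM in si-circRtn4 libraries (log2 fold change 0.83, SE 0.18, adjusted p = 0.0304 in limma). Its call was lost in 4 of 6 fits without 1 library. Tapbp, H2-D1 and H2-K1 serve the loading and display of peptides on MHC class I. Tapbp went from 42.2, 35.2 and 33.8 FPKM to 18.6, 17.3 and 14.6 FPKM (log2 fold change −1.10, adjusted p = 0.00313 in limma). H2-D1 went from 123, 108 and 114 FPKM to 64.0, 67.5 and 70.2 FPKM (log2 fold change −0.77, adjusted p = 0.00293 in limma). H2-K1 fell by 0.61 (adjusted p = 0.00954 in limma). Like Psmb8, all 3 were lower in every si-circRtn4 library than in any si-NC library, as were 15.5% of all genes tested. Ube2l6, the enzyme that passes ISG15 to its ligases, fell by 0.83 (adjusted p = 0.00804 in limma), opposite to Isg15 itself, and Lgals9 fell by 0.71 (adjusted p = 0.0125).

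**Figure D5:**
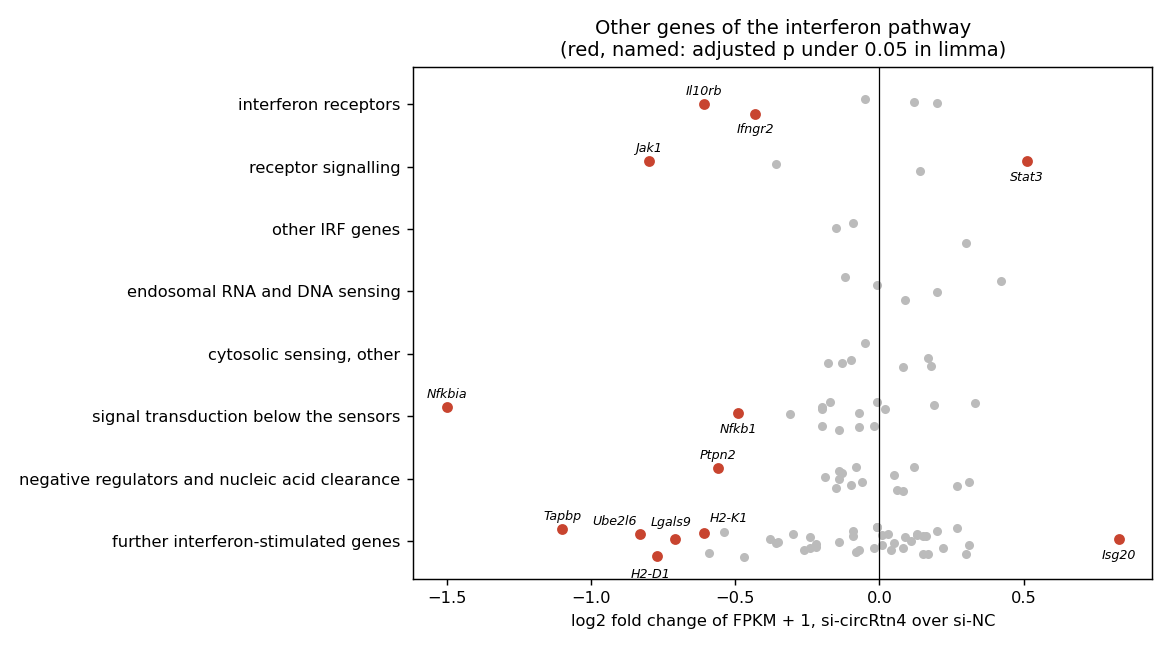
Log2 fold change of FPKM + 1 (si-circRtn4 over si-NC) of the 99 further pathway genes tested, grouped by role, with 1 point per gene and names on those with an adjusted p under 0.05 in limma. The 11 named genes on the left run from −1.5 (Nfkbia) to −0.43 (Ifngr2), and the 2 on the right are Stat3 and Isg20.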

How the data were processed

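RNA was sequenced from 6 N2a libraries, grouped by their labels. The authors deposited FPKM values per gene. The submitters' notes name Bowtie 0.12.2 and builds mm8 and mm9, with no role, while 98.1% of listed genes have GENCODE M21 (GRCm38) coordinates. The counting tool and strand setting are not given in the sources used here, and 6 columns of other samples were not used. Recovered reads were whole for 100% of values (tolerance 0.01).

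Group differences in log2(FPKM + 1) were fitted under R 4.3.3 by limma 3.58.1 (lmFit, trended eBayes) with Benjamini-Hochberg adjustment, and the fit was tested on simulated data. Alternatives were a pseudocount of 0.1, all genes above 0, a minimum of 0.1 FPKM, TPM with and without Gm23935, quantile normalization, limma-voom on recovered reads, a replicate block and leaving out each library. Libraries of the same number deviated together (correlations 0.331, 0.19 and 0.226, at most 0.00913 otherwise), which meets the bar set for treating the numbers as pairs, though no source says what they mark. The reported fits are unpaired, after the study's unpaired test. Blocked values are given where they change the call of a member, and for Tyk2 and Rtn4. The other pathway genes with a changed call are given by count only.

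The members and lists were chosen with earlier results of these data known. Members were named library by library where called, not overlapping or among the 10 most abundant, and pathway genes where called or in a short fixed list, 1 of which is not reported here.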

Additional observations from a re-analysis of the deposited data

How the results depend on the processing

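The count of members called higher, 2 as reported, was 1 with all genes above 0, 1 with a minimum of 0.1 FPKM, 5 by limma-voom over genes with at least 10 reads (added after seeing the data) and 1 to 5 without 1 library. The 5 came without replicate 3 of si-circRtn4, with Rsad2 and Cxcl10 among them, and the 5 by limma-voom include Ifih1. These 3 genes passed the minimum only through the si-circRtn4 group. The count called lower, 3 as reported, was 5 with the replicate block and 2 whichever library was left out. For the pathway genes, the 2 called higher became 1 with all genes above 0, 1 with a minimum of 0.1 FPKM, 5 with TPM, 5 by limma-voom in either form, 4 with the replicate block and 0 to 3 without 1 library (0 without replicate 2 of si-NC). The 11 called lower became 7 with all genes above 0, 19 with the replicate block and 6 to 10 without 1 library (6 without replicate 2 of si-NC). The cause of these shifts was not tested.

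The median of the members moved between −0.115 and 0.015, which is less than the spread between libraries. Of 315 values of single members under the alternatives, 272 kept their direction and side of the threshold, 5 passed it newly, 17 lost it and 21 changed sign. Those that changed sign were near 0 as reported. With TPM, Irf9 was 0.02, Stat2 0.07, Trim25 0.07 and Ifi35 0.06 on the log2 scale. With TPM without Gm23935, Stat2 was 0.01 and Trim25 0.01, and by limma-voom in either form Stat2 was 0.00 and Trim25 0.01. Without 1 library, Eif2ak2 ran from −0.02 to 0.18, Irf9 from −0.12 to 0.01, Stat2 from −0.11 to 0.08, Trim25 from −0.07 to 0.03, Ifit2 from −0.03 to 0.19, Ifi35 from −0.12 to 0.08 and Tap1 from −0.28 to 0.03. Irf1 was also not called with TPM (adjusted p = 0.062 in limma), with TPM without Gm23935 (0.0568), with all genes above 0 (0.134) or with a minimum of 0.1 FPKM (0.0774). The replicate block, which pairs libraries by number, changed no call of a member other than those of Mavs and Bst2. Depth limits the 21 members under 1 FPKM.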
